A study of Homo sapiens with 4 samples.

Results

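Small nucleolar RNA host genes are lncRNA genes whose introns carry snoRNAs. They were examined in MHCC97H cells, an established human hepatocellular carcinoma (HCC) cell line, after knockdown of UBXN1. The set was every lncRNA gene whose symbol starts with SNHG, 28 genes, plus GAS5, ZFAS1, EPB41L4A-AS1, DANCR, CYTOR and MIR17HG, 6 genes. It therefore held 34 of the 61541 genes in the deposited table, on 16 chromosomes. Of the 34 genes, 30 had enough counts to be tested and 4 were too low, namely SNHG18, SNHG25, SNHG27 and SNHG31. RNA of control cells (shCon, 2 libraries) was compared with RNA of cells given an shRNA against UBXN1 (shUBXN1, 2 libraries), which asks what changes in the transcriptome when UBXN1 is reduced. All 4 libraries came from the 1 cell line, and which UBXN1 shRNA was sequenced is not given in the sources used here. The labels describe transfection of the shRNA, whereas the study's methods describe lentiviral vectors and name the control shRFP. Nothing says that the libraries of a group came from separate cultures, so p-values measure the spread between these samples, which may be technical.

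As background, a host gene is transcribed and spliced, and the snoRNAs are trimmed out of the excised introns. Box C/D snoRNAs guide 2′-O-methylation of ribosomal RNA, box H/ACA snoRNAs guide pseudouridylation, and scaRNAs guide the same modifications on spliceosomal RNAs in Cajal bodies. The spliced exons of many host genes have no long open reading frame and are removed by nonsense-mediated decay when ribosomes translate them. Many host genes start with the pyrimidine tract known from ribosomal protein genes, the 5′ terminal oligopyrimidine (TOP) motif. The labels name an mRNA kit for the libraries, whereas the study's methods name a TruSeq RNA kit. The values are read here as host transcripts and not as snoRNAs. Between 4.21 and 8.17 counts per library fell on all annotated snoRNA and scaRNA genes inside the host genes, too few to compare.

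Counts in the table summed to 27380508 and 24305174 for the shCon libraries and to 23433826 and 23373700 for the shUBXN1 libraries. UBXN1 itself was at 67.06 and 77.34 CPM (counts scaled to library size) in shCon and at 16.81 and 18.5 CPM in shUBXN1, so its log2 fold change was -2.03 (edgeR adjusted p = 9.983e-10, standard error 0.0963). Mitochondrial genes took 5.28% and 5.59% of the counts in shCon and 7.43% and 8.27% in shUBXN1. Of 12 hepatocyte and epithelial markers, 8 were above 1 CPM in every library, led by the keratin gene KRT8. Their summed level, carried by KRT8 and KRT18, was 4422 and 4591 CPM in shCon and 3473 and 4065 CPM in shUBXN1, and TTR, APOA1 and EPCAM were below 1.5 CPM throughout. Among hepatocyte markers, ALB was at 17.97 and 17.15 CPM in shCon and at 4.202 and 4.784 CPM in shUBXN1, APOB at 16.65 and 12.22 against 4.0 and 4.015 CPM, and FGB at 9.714 and 9.961 against 0.808 and 0.384 CPM. All 3 were lower in both knockdown libraries, and their part in the host gene values was not tested. Of 5 leukocyte markers, 1 was above 1 CPM in every library (CD68, 70.48 to 88.3 CPM), and PTPRC and CD3E were at or near 0. Of 3 endothelial markers, 1 was above 1 CPM in every library (PECAM1, 33.16 to 43.03 CPM), and CDH5 was at or near 0. Of 4 fibroblast markers 0 were, with sums of 1.35 to 2.905 CPM, though COL1A1 was at 0.375 and 0.170 CPM in shCon and at 2.344 and 2.52 CPM in shUBXN1. In bulk RNA, fewer cells of a type and less RNA per cell cannot be told apart.

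UBXN1 knockdown went with lower levels of several abundant host genes. At a Benjamini-Hochberg adjusted p under 0.05 from edgeR's quasi-likelihood test over 16863 genes, 11 of the 30 tested host genes were lower in shUBXN1, 4 were higher and 15 were not called. The lower genes were SNHG16, DANCR, SNHG1, SNHG4, SNHG15, SNHG3, SNHG7, SNHG20, SNHG17, SNHG8 and SNHG29. The higher genes were SNHG22, SNHG11, SNHG14 and SNHG6. The knockdown moved much of the transcriptome, with 28.2% of all tested genes lower and 28% higher. Against this, 36.7% of the tested host genes were lower and 13.3% were higher. Among the 2417 tested lncRNA genes the corresponding shares were 12% lower and 20.6% higher. The median log2 fold change was -0.21 over the 30 host genes, 0.15 over the tested lncRNA genes and 0.02 over all tested genes.

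Most changes were modest. The log2 fold changes of the tested host genes ran from -1.09 to 1.23, and 19 of the 30 were under 0.5 in size. Changes under 0.5 were also found in 9295 of all 16863 tested genes, so this is not particular to host genes. By the rule in the study's methods, at least a 2-fold change with an unadjusted p under 0.05, SNHG16 and DANCR were lower and SNHG22 and SNHG28 were higher. SNHG28 passed the filter on low counts only through the shUBXN1 libraries, so its place among the higher genes was built into its being tested. This rule called 6.09% of all tested genes lower and 11.8% higher, and 7.74% of the tested lncRNA genes lower and 17.2% higher. In 26 of the 30 genes both shUBXN1 libraries lay on the same side of both shCon libraries, a pattern found in 78% of all tested genes and in 63.6% of the tested lncRNA genes.

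**Figure D1:**
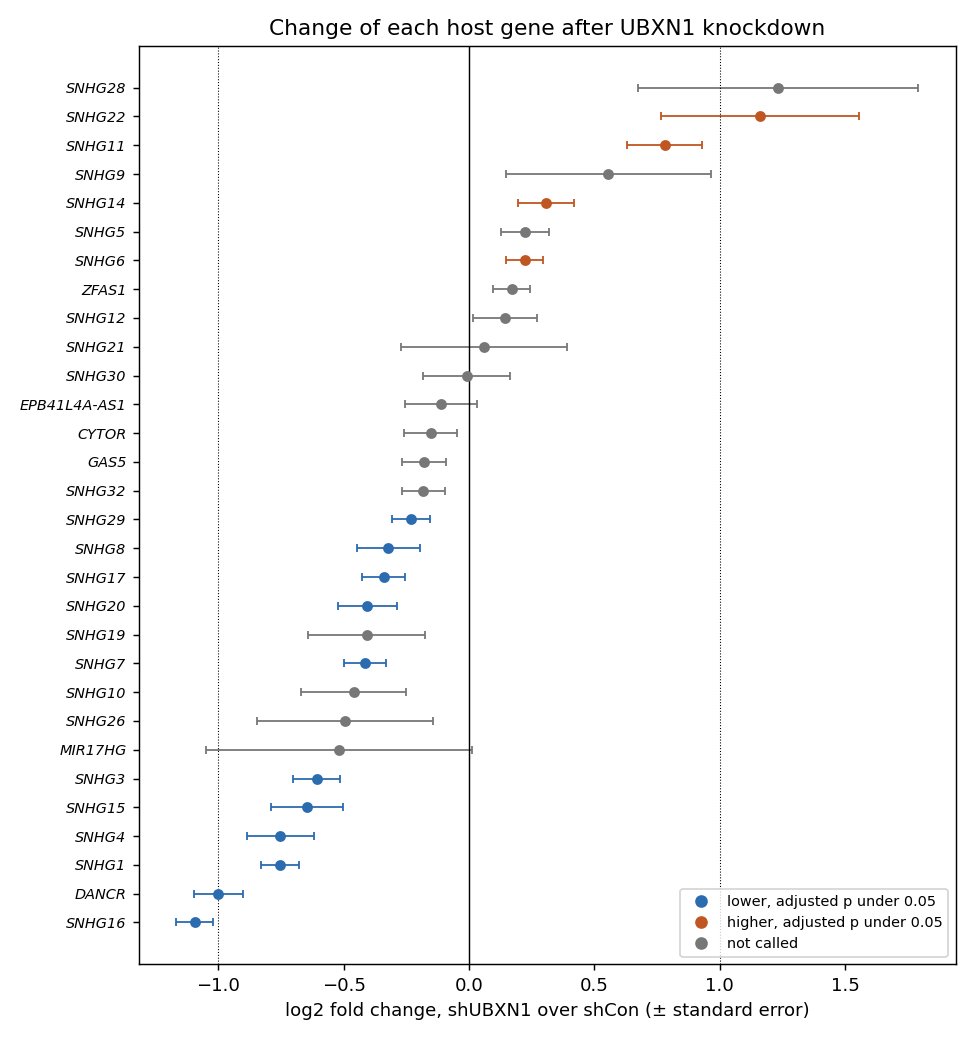
Each point is the log2 fold change of 1 host gene in shUBXN1 over shCon (2 libraries each), with its standard error from the edgeR fit as a bar; dotted lines mark a fold change of 2. Blue genes (11) were lower, orange genes (4) were higher and grey genes (15) were not called at an adjusted p under 0.05.

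Of the 34 genes, 30 contain an annotated snoRNA or scaRNA gene in RefSeq, judged by position alone, with strand and introns not checked. CYTOR, MIR17HG, SNHG27 and SNHG28 contain none, so for these 4 the name host gene rests on the selection rule. The host genes are described below by the small RNA they carry. Levels of single genes in CPM were compared between libraries, and levels between genes are given in TPM, which scales to library size and divides by gene length. Sums, shares and ratios of CPM over several genes depend on gene length, so only their movement between libraries can be read. The order of genes by CPM also depends on gene length.

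Among hosts of box C/D snoRNAs, SNHG16 (ENSG00000163597, host of SNORD1A, SNORD1B and SNORD1C) had the largest fall of any host gene. It was at 142.7 and 140.3 CPM in shCon and at 64.7 and 67.86 CPM in shUBXN1. Both knockdown libraries were far below both control libraries, and the pairs of replicates were close to each other. The level in shUBXN1 was 46.8% of that in shCon (log2 fold change -1.09, standard error 0.0731, edgeR adjusted p = 2.315e-08). In TPM, SNHG16 ranked 3 among the 34 host genes in shCon and 5 in shUBXN1. SNHG16 shares 28.5% of its annotated exon bases with other genes.

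SNHG1 (ENSG00000255717), which carries 8 box C/D snoRNAs, shares no exon base with another annotated gene. Its levels were 94.41 and 97.69 CPM in shCon and 55.37 and 58.52 CPM in shUBXN1. The groups did not overlap, and the gap was wide compared with the distance between replicates. The knockdown level was 59.3% of the control level (log2 fold change -0.75, standard error 0.0747, edgeR adjusted p = 1.052e-06). SNHG1 lies 173 kb from UBXN1 on chromosome 11.

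SNHG29 (ENSG00000175061, host of SNORD49A, SNORD49B and SNORD65) was the host gene with the highest TPM in shCon. It was at 207.8 and 217.5 CPM in shCon and at 172.3 and 189.9 CPM in shUBXN1. The groups did not overlap, but the replicates of shUBXN1 were about as far apart as the nearest libraries of the groups. The fall was small, at a log2 fold change of -0.23 (standard error 0.0769, edgeR adjusted p = 0.0191). It was not called without shCon replicate 1 (adjusted p = 0.0531) or without shCon replicate 2 (adjusted p = 0.252).

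SNHG6 (ENSG00000245910, host of SNORD87) moved the other way. It was at 82.59 and 88.69 CPM in shCon and at 100.3 and 99.29 CPM in shUBXN1, with both knockdown libraries above both control libraries. The log2 fold change was 0.22 (standard error 0.0737, edgeR adjusted p = 0.0192). Without shCon replicate 1 the adjusted p was 0.228, and without shCon replicate 2 it was 0.133. With 115.5 TPM in shUBXN1, SNHG6 took the place of SNHG29, at 114.2 TPM, as the first of the host genes, and these levels differed by little. In shCon SNHG6 had 95.0 TPM and SNHG29 had 128.8 TPM.

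SNHG14 (ENSG00000224078) is a long imprinted transcript of the Prader-Willi region on chromosome 15. It carries 83 box C/D snoRNA genes and runs antisense to UBE3A. Its levels were 74.69 and 69.82 CPM in shCon and 102.6 and 76.02 CPM in shUBXN1. Replicate 2 of shUBXN1 was only slightly above the controls, and replicate 1 was far above them. The log2 fold change was 0.31 (standard error 0.110, edgeR adjusted p = 0.0286), and it fell to 0.07 without shUBXN1 replicate 1 (adjusted p = 0.457). It rose to 0.49 without shUBXN1 replicate 2 and was not called without shCon replicate 2 (adjusted p = 0.157).

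ZFAS1 (host of 3 SNORD12 genes) and SNHG5 (host of SNORD50A and SNORD50B) had values above the controls without passing the adjusted threshold. ZFAS1 was at 69.41 and 73.68 CPM in shCon and at 80.61 and 80.39 CPM in shUBXN1 (log2 fold change 0.17, edgeR adjusted p = 0.0626). SNHG5 was at 27.05 and 30.79 CPM in shCon and at 32.33 and 35.06 CPM in shUBXN1 (log2 fold change 0.22, edgeR adjusted p = 0.0611). In neither gene did the groups overlap, and both lay just outside the threshold. SNHG5 passed without shUBXN1 replicate 1 (adjusted p = 0.0192).

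The other box C/D hosts were not called. SNHG32, host of SNORD48 and SNORD52, ranked 4 in TPM in shCon. It had a log2 fold change of -0.18 (edgeR adjusted p = 0.0833), and passed without shUBXN1 replicate 2 (adjusted p = 0.0307). SNHG19, with 71 to 117 counts per library, had a log2 fold change of -0.41 with a standard error of 0.232. SNHG26 had -0.49 with a standard error of 0.351, and SNHG30 had -0.01 with a standard error of 0.174. For SNHG19 and SNHG26 the interval of the change is wide enough to hold both no change and a fall of the size seen in SNHG1.

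Hosts of box H/ACA snoRNAs were mostly lower, with 7 of 10 tested called lower (70%) and 1 called higher (10%), beside 28.2% and 28% of all tested genes, and their median log2 fold change was -0.38. For the 11 tested hosts of box C/D snoRNAs alone the counts were 3 lower (27.3%) and 2 higher (18.2%), with a median of -0.18. The difference between the classes was not tested.

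**Figure D2:**
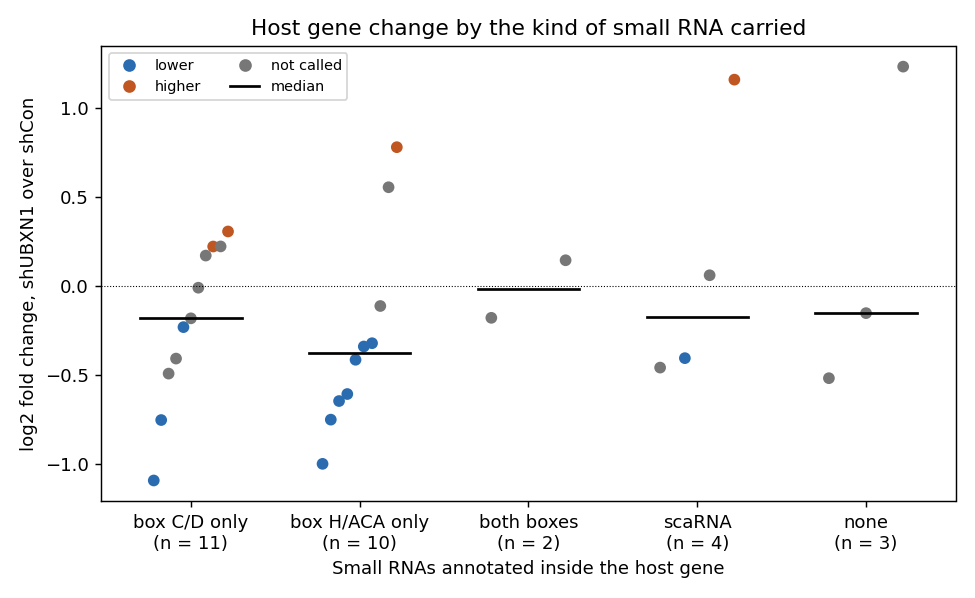
Each point is the log2 fold change of 1 tested host gene in shUBXN1 over shCon, grouped by the small RNAs annotated inside it; black lines are medians. Blue, orange and grey points were lower, higher and not called, and the medians were -0.38 for box H/ACA hosts and -0.18 for box C/D hosts.

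DANCR (ENSG00000226950, host of SNORA26) is known as a lncRNA that restrains differentiation. It was at 37.92 and 41.43 CPM in shCon and at 18.63 and 21.02 CPM in shUBXN1. Both knockdown libraries were well below both controls. The knockdown level was 49.97% of the control level (log2 fold change -1.001, standard error 0.0977, edgeR adjusted p = 9.226e-07), so DANCR passed the fold change threshold of 2 by a very small margin. Its rank in TPM among the host genes went from 13 in shCon to 19 in shUBXN1.

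SNHG4 (ENSG00000281398, host of SNORA74A and SNORA74D) was at 14.23 and 14.93 CPM in shCon and at 9.132 and 8.154 CPM in shUBXN1. SNHG3 (ENSG00000242125) carries SNORA73A and SNORA73B, the U17 snoRNAs of ribosomal RNA processing, and was at 32.43 and 35.0 CPM in shCon and at 22.37 and 21.83 CPM in shUBXN1. SNHG15 (ENSG00000232956, host of SNORA9) was at 11.14 and 11.83 CPM in shCon and at 7.435 and 7.219 CPM in shUBXN1. In all 3 genes the replicates were close and the groups were far apart. The log2 fold changes were -0.75 for SNHG4 (standard error 0.133, edgeR adjusted p = 2.406e-04), -0.61 for SNHG3 (standard error 0.0928, adjusted p = 6.643e-05) and -0.65 for SNHG15 (standard error 0.144, adjusted p = 0.00151). SNHG15 shares no exon base with another annotated gene.

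Smaller falls were found in SNHG7, SNHG17 and SNHG8. SNHG7 (ENSG00000233016, host of SNORA17A and SNORA17B) was at 42.04 and 41.68 CPM in shCon and at 32.68 and 30.08 CPM in shUBXN1 (log2 fold change -0.42, standard error 0.0850, edgeR adjusted p = 8.129e-04). With a correction for GC content the value was -0.83. SNHG17 (ENSG00000196756, host of 4 SNORA71 genes) was at 35.47 and 37.46 CPM in shCon and at 29.36 and 28.25 CPM in shUBXN1 (log2 fold change -0.34, standard error 0.0869, edgeR adjusted p = 0.00403). Without shCon replicate 2 its adjusted p was 0.0598.

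SNHG8 (ENSG00000269893, host of SNORA24) was the call closest to the threshold. Its levels were 15.39 and 14.78 CPM in shCon and 11.19 and 12.95 CPM in shUBXN1, which did not overlap. The log2 fold change was -0.32 (standard error 0.126, edgeR adjusted p = 0.0407). On the same 4 libraries SNHG8 was called with limma-voom (adjusted p = 0.0382) but not with DESeq2 (adjusted p = 0.145). In edgeR the call was also lost with total count scaling (adjusted p = 0.111) and with the GC correction (0.0716). It missed the threshold without shCon replicate 1 (adjusted p = 0.174), without shCon replicate 2 (0.0891) and without shUBXN1 replicate 1 (0.165).

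SNHG11 (ENSG00000174365), which carries SNORA60 and SNORA71E, was the 1 box H/ACA host that rose. It was at 7.014 and 6.981 CPM in shCon and at 10.99 and 13.07 CPM in shUBXN1. The controls were almost equal and both knockdown libraries were clearly above them. The level in shUBXN1 was 171.8% of that in shCon (log2 fold change 0.78, standard error 0.150, edgeR adjusted p = 5.037e-04), and SNHG11 shares no exon base with another annotated gene.

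SNHG11 and SNHG17 are neighbours on chromosome 20, on opposite strands and 10.9 kb apart, and both carry SNORA71 genes. SNHG11 had 0.198 and 0.186 times the CPM of SNHG17 in shCon and 0.374 and 0.463 times in shUBXN1. The ratio was thus higher in both knockdown libraries. SNHG3 and SNHG12 lie 67.6 kb apart on chromosome 1, and the CPM ratio of SNHG12 to SNHG3 was 0.375 and 0.413 in shCon and 0.636 and 0.695 in shUBXN1. The counts behind these ratios depend on gene length, so only their movement between libraries can be read.

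The remaining box H/ACA hosts were not called. For EPB41L4A-AS1, host of SNORA13, the log2 fold change was -0.11 (standard error 0.144), and 51.2% of its exon bases are shared with other genes. SNHG9, host of SNORA78, had 23 to 48 counts per library and a log2 fold change of 0.56 with a standard error of 0.410. Its groups overlapped.

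GAS5 (ENSG00000234741) carries 10 box C/D snoRNAs and 1 box H/ACA snoRNA and is known for accumulating in growth-arrested cells. It was at 66.68 and 67.08 CPM in shCon and at 64.25 and 53.83 CPM in shUBXN1. Replicate 1 of shUBXN1 was only slightly below the controls, and replicate 2 was further below. The log2 fold change was -0.18 (standard error 0.0876, edgeR adjusted p = 0.0957), so GAS5 was not called. Without shUBXN1 replicate 1 it was -0.32 (adjusted p = 9.488e-04). In SNHG12, the other tested gene with both kinds of snoRNA, the groups overlapped around a log2 fold change of 0.14 (standard error 0.128), and its sign turned with a correction for GC content.

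Of the 4 scaRNA hosts, SNHG20 (ENSG00000234912, host of SCARNA16) was lower and SNHG22 (ENSG00000267322, host of SCARNA17) was higher. SNHG20 was at 15.59 and 16.05 CPM in shCon and at 12.04 and 11.83 CPM in shUBXN1 (log2 fold change -0.41, standard error 0.118, edgeR adjusted p = 0.00915). Without shCon replicate 2 the adjusted p was 0.0578. SNHG22 had counts of 23 and 17 in shCon against 47 and 39 in shUBXN1.

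The SNHG22 counts did not overlap between the groups but were small. The log2 fold change was 1.16 with a standard error of 0.395 (edgeR adjusted p = 0.0218). DESeq2 did not call SNHG22 on the same 4 libraries (adjusted p = 0.0819). It was not called without shCon replicate 1 (adjusted p = 0.0634), without shCon replicate 2 (0.124) or without shUBXN1 replicate 1 (0.0994). SNHG10, host of SCARNA13, had a log2 fold change of -0.46 (edgeR adjusted p = 0.0765) and passed without shUBXN1 replicate 1 (adjusted p = 0.0164). SNHG21, host of SCARNA15, had 0.06 with a standard error of 0.331 and shares 72.9% of its exon bases.

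Among genes of the set without an annotated snoRNA, none of the 3 that were tested passed the adjusted threshold in edgeR or in any alternative. At an unadjusted p under 0.05 SNHG28 passed by edgeR. CYTOR, a lncRNA named for its link to the cytoskeleton, was at 19.81 and 22.35 CPM in shCon and at 19.04 and 18.86 CPM in shUBXN1 (log2 fold change -0.15, edgeR adjusted p = 0.240). MIR17HG, the primary transcript of the miR-17-92 cluster of 6 microRNAs, had counts of 17 and 13 in shCon against 11 and 9 in shUBXN1. Its log2 fold change of -0.52 had a standard error of 0.530, so a change of that size was not detectable at this depth. MIR17HG reached the cutoff of the count filter in 2 shCon libraries but in only 1 shUBXN1 library. Its being tested thus rested mainly on shCon, where it was higher, so a lower value in shUBXN1 was partly built in. The microRNAs themselves were not measured.

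SNHG28 had counts of 10.09 and 4.78 in shCon against 17.64 and 15.53 in shUBXN1. It passed the count filter only through the shUBXN1 libraries, so a higher value there was built into its being tested. Its log2 fold change of 1.23 had a standard error of 0.559 (edgeR adjusted p = 0.0743), and 90.8% of its exon bases are shared with other genes.

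The 4 genes below the count filter were not compared. SNHG18 had 0 counts in every library, which allows up to 3 counts, or 0.113 to 0.128 CPM depending on the library. SNHG27 had counts of 1 and 0 in shCon against 0 and 2 in shUBXN1. SNHG31 had counts of 4 and 4 in shCon against 1 and 3 in shUBXN1. SNHG25, the nearest to the filter, had counts of 6 and 3 in shCon against 6 and 7 in shUBXN1. The filter asked for 0.419 CPM in at least 2 libraries, and just inside it lay MIR17HG and SNHG28. These limits cover counting error only.

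**Figure D3:**
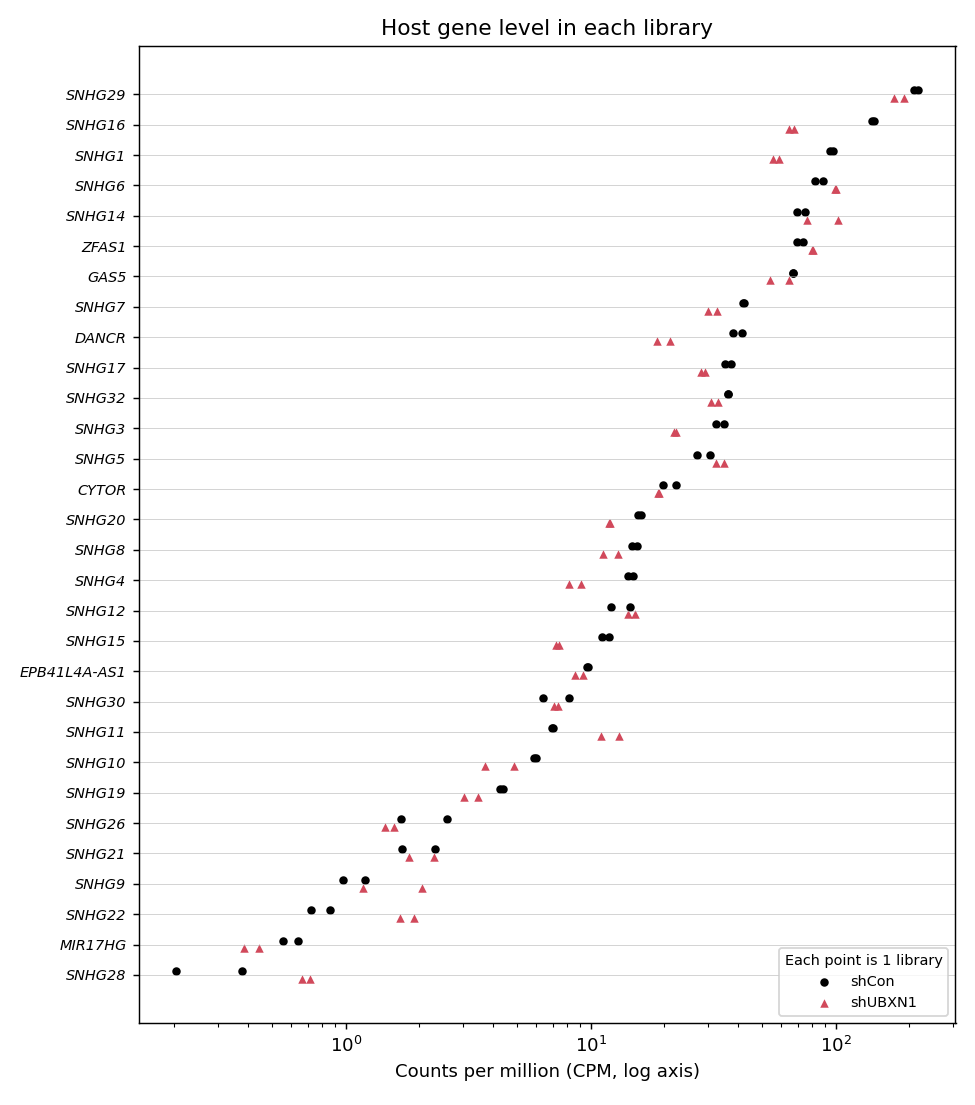
Each point is the level of 1 host gene in 1 library, in CPM on a log axis, for the 30 tested genes sorted by their mean in shCon; circles are shCon and triangles shUBXN1. SNHG16, DANCR and SNHG1 show knockdown libraries well to the left of the controls, and SNHG11 and SNHG22 show them to the right.

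Summed over all 34 genes, host gene transcripts took less of each knockdown library. The sum was 1080 and 1113 CPM in shCon and 923.8 and 913.7 CPM in shUBXN1, or 83.8% of the control level. Both shUBXN1 libraries were below both shCon libraries, and the two-sided exact permutation test gave p = 0.333, the smallest that 2 libraries against 2 allow. Without SNHG29 and SNHG16, the 2 genes with the highest CPM in shCon, of which SNHG16 is also the gene that fell most, the sum was at 90.4% of the control level. SNHG16 took 12.9% of the summed CPM in shCon and 7.21% in shUBXN1, whereas SNHG29 took 19.4% and 19.7%. The share of mitochondrial counts rose in the same libraries, and its part in the fall of the sum was not tested.

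The start of each gene was searched for the letters CTTT, which are only a narrow stand-in for the TOP motif. A gene without these letters may still start with a pyrimidine tract. RefSeq (GRCh38.p14) gave a start for 30 of the 34 host genes. The letters CTTT, searched on the gene's strand within 10 bases of the start on either side, were found in 9 of these 30 (30%) and in 9.07% of 35116 RefSeq promoters. The windows shown cover 10 bases before the start and 20 bases from it, with CTTT in capitals, for genes that fell, rose or were not called. SNHG16 (chr17:76557754-76557783, plus strand) and SNHG4 (chr5:139274091-139274120, plus strand) were lower, and the letters lie a few bases after the start.
SNHG16: gggcggtctcgcgttCTTTtcgaggtcggc
SNHG4: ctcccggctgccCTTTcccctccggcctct
In SNHG5 (chr6:85678714-85678743, minus strand), ZFAS1 (chr20:49278632-49278661, plus strand) and SNHG32 (chr6:31834906-31834935, plus strand), none of which was called, CTTT begins at the start itself.
SNHG5: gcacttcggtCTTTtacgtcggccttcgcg
ZFAS1: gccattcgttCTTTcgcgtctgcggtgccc
SNHG32: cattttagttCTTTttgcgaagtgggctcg
SNHG1 (chr11:62855866-62855895, minus strand) and DANCR (chr4:52712384-52712413, plus strand) were lower and have no CTTT in this window, and neither has SNHG11 (chr20:38446644-38446673, plus strand), which was higher.
SNHG1: gagattcgttctcatttttctactgctcgt
DANCR: tgcgcgccccgcccttgcccagagtcttcc
SNHG11: gctctaggctgcagccgcgcccccagccgt

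Genes that were lower and genes that were not called were found with and without these letters. Of the 9 genes with CTTT, all tested, 4 were lower (44.4%), 0 were higher and 5 were not called, with a median log2 fold change of -0.23. Of all tested genes, 28.2% were lower and 28% were higher. The count of 0 higher was from edgeR and was the same with DESeq2 and limma-voom. In edgeR, ZFAS1 and SNHG5 were higher at an unadjusted p under 0.05, and both were called with total count scaling (adjusted p = 0.00901 and 0.0179), with at least 10 counts in every library (0.0257 and 0.0297) and with the replicate block (0.0442 and 0.0286). SNHG5 alone was called with the GC correction (edgeR adjusted p = 0.0372), and ZFAS1 alone with limma on log2(TPM + 1) (adjusted p = 0.0353). Among the 18 tested genes with a RefSeq start but no CTTT there, 6 were lower (33.3%) and 3 were higher (16.7%). Their median was -0.26, and their lower share was near that of all tested genes. The difference was not tested, and RefSeq starts can lie far from the first base of the gene model. The distance was 37 bases for SNHG16 and 464 for ZFAS1, but 1259 for SNHG12 (with CTTT), 1927 for SNHG20 and 154975 for SNHG14 (both without). Over the whole 300-base promoter windows and both strands, CACGTG was in 6.67% of the host genes and 7.26% of all promoters, and CCAAT in 33.3% and 34.6%. TATAAA was in 13.3% and 11.5%, and TGACGTCA in 0% and 1.85%. A match says only that the letters are there, and a lack of CTTT does not show that the TOP motif is missing.

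Many host genes overlap another gene, and whether strand was used in counting is not given in the sources used here, so reads in shared exons cannot be assigned with certainty. Of the 34 genes, 24 share exon bases with another annotated gene. Among the 10 that share none, 6 were tested, of which SNHG1, SNHG15 and SNHG17 were lower, SNHG11 was higher, and SNHG9 and SNHG19 were not called. Their median log2 fold change was -0.37.

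Genes on the same strand as a host gene moved both with it and against it. RCC1, the exchange factor of the Ran GTPase, which shares 5.92% of the SNHG3 exon bases, fell from 106.5 and 116.0 CPM in shCon to 67.55 and 72.92 CPM in shUBXN1 (log2 fold change -0.66, edgeR adjusted p = 5.83e-06), much like SNHG3 itself. MATR3, a nuclear matrix protein gene that shares 14.0% of the SNHG4 exon bases, had a smaller fall (log2 fold change -0.33, edgeR adjusted p = 0.00470). SEC14L1, which shares 7.56% of the SNHG20 exon bases, rose by 0.67 on the log2 scale (edgeR adjusted p = 4.093e-06) where SNHG20 fell. The lncRNA ENSG00000285565, which shares 23.2% of the SNHG32 exon bases, fell by 1.37 on the log2 scale while SNHG32 was not called. ENSG00000271793, a gene annotated as protein-coding over SNHG5, fell by 0.44 on the log2 scale.

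In the Prader-Willi region, SNRPN, the gene for a core splicing protein upstream of SNHG14, was at 69.08 and 71.4 CPM in shCon and at 129.6 and 145.8 CPM in shUBXN1 (log2 fold change 0.97, edgeR adjusted p = 1.551e-07). PWAR5, which lies inside SNHG14, rose by 2.10 on the log2 scale from about 1 CPM (edgeR adjusted p = 6.027e-05). UBE3A, the ubiquitin ligase gene antisense to SNHG14, was lower, with a log2 fold change of -0.30 (edgeR adjusted p = 0.00438). Another RNA there, ENSG00000261069, was under 1 CPM and not called.

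Genes on the strand opposite to a host gene and sharing exon bases with it also moved either way. PRSS12, which shares 37.6% of the SNHG8 exon bases, was higher (log2 fold change 0.34, edgeR adjusted p = 0.0448) where SNHG8 was lower. DIPK1B shares 30.3% of the SNHG7 exon bases and was not called (log2 fold change 0.17). MCMDC2 and LRRC75A, which overlap SNHG6 and SNHG29, had mean levels of 0.175 to 0.659 TPM in either group, where SNHG6 and SNHG29 had 95.0 to 128.8 TPM. SIL1 (SNHG4), TRNAU1AP (SNHG12), NCAL1 (CYTOR, same strand) and ENSG00000252690 (SNHG21, same strand) were not called. GLRX5 (SNHG10) was lower, and MYO5B (SNHG22) was higher.

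Some genes start within 1000 bases of a host gene on the opposite strand. SLC3A2, the heavy chain of amino acid transporters, starts 51 bases from SNHG1 and was at 364.5 and 377.4 CPM in shCon and at 298.2 and 325.6 CPM in shUBXN1 (log2 fold change -0.25, edgeR adjusted p = 0.0131), a smaller fall than that of SNHG1. ACAA2, a mitochondrial thiolase gene, starts 12 bases from SNHG22 and was higher with it, at a log2 fold change of 0.31 (edgeR adjusted p = 0.00524). RPS2, a ribosomal protein gene that starts 54 bases from SNHG9, was higher by 0.23 on the log2 scale (edgeR adjusted p = 0.0452). TRAF7, beside SNHG19, had a log2 fold change of -0.58, and ZNFX1, beside ZFAS1, had -0.22, both called lower. ZBTB37, beside GAS5, was not called, and the lncRNA ENSG00000272668, beside SNHG28, had counts of 9 and 15 in shCon against 91 and 74 in shUBXN1. Like SNHG28 it depended on the shUBXN1 libraries to pass the filter, so a higher value there was built in.

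Genes that work with snoRNAs were lower more often than they were higher. Of 19 proteins of box C/D and H/ACA snoRNPs and their assembly factors, 13 were lower (68.4%) and 1 was higher (5.26%), beside 28.2% and 28% of all tested genes, and the median log2 fold change was -0.40. FBL, the methyltransferase of box C/D snoRNPs, was at 305.9 and 325.8 CPM in shCon and at 107.2 and 117.1 CPM in shUBXN1 (log2 fold change -1.49, edgeR adjusted p = 2.49e-09). NOP56, a scaffold of the same particle and itself a snoRNA host, had a log2 fold change of -0.87 (edgeR adjusted p = 2.581e-07). TGS1, which trimethylates the caps of small RNAs, had -0.73 (edgeR adjusted p = 2.149e-06).

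Protein-coding snoRNA host genes gave a comparison with hosts whose exons are translated. Of 56 such genes, 38 were lower and 4 were higher (7.14%), with a median log2 fold change of -0.34. Their lower share of 67.9% stood beside 36.7% for the lncRNA hosts, and this difference was not tested. Over all tested genes, 28.2% were lower and 28% were higher. PRRC2A had a log2 fold change of -1.08 (edgeR adjusted p = 3.168e-08) and WDR43, a factor of ribosomal RNA processing, had -0.95 (edgeR adjusted p = 1.338e-07). Of 38 ribosome biogenesis and RNA polymerase I factors, 27 were lower (71.1%) and 4 were higher (10.5%), with a median of -0.47.

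In that list DDX18, an RNA helicase of the nucleolus, fell by 1.002 on the log2 scale (edgeR adjusted p = 6.043e-08). NPM1, the nucleolar phosphoprotein nucleophosmin, fell by 1.06 (edgeR adjusted p = 7.287e-08), and NOB1, which cleaves the 18S rRNA precursor, by 0.79 (edgeR adjusted p = 1.602e-06). Factors of nonsense-mediated decay, the route that removes many host gene transcripts, went both ways. Of 20, 9 were lower (45%) and 6 were higher (30%), beside 28.2% and 28% of all tested genes. The higher share was near that of all tested genes, and the median was -0.11. DHX34 had a log2 fold change of 0.53 (edgeR adjusted p = 2.11e-05) and the cap-binding gene NCBP1 had -0.60 (edgeR adjusted p = 2.866e-05).

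**Figure D4:**
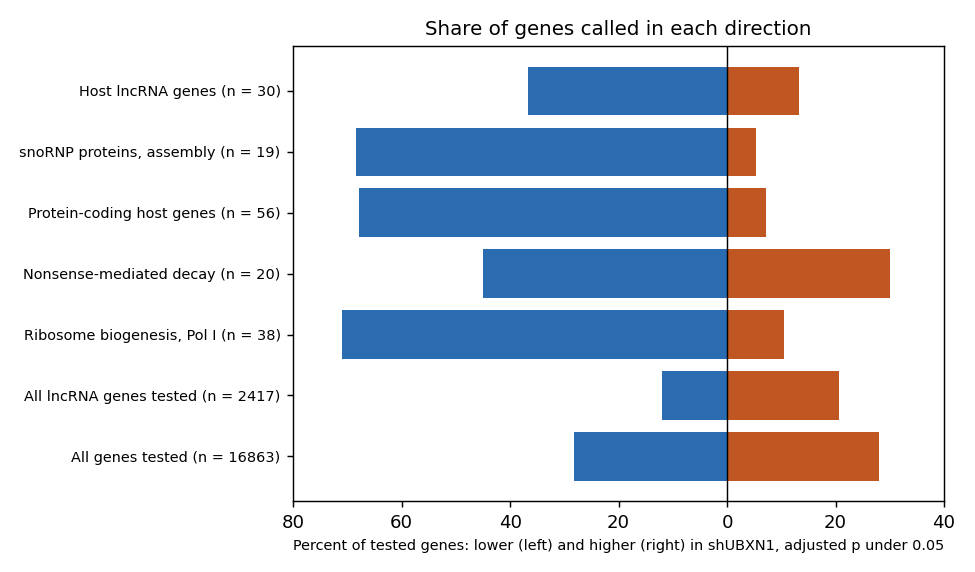
Bars give the percent of tested genes in each list that were lower (blue, left) or higher (orange, right) in shUBXN1 at an adjusted p under 0.05; n is the number tested. The lncRNA host genes (36.7% lower) lie between all lncRNA genes (12% lower) and the snoRNP, protein-coding host and ribosome biogenesis lists.

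The calls were recomputed under 14 alternatives of scaling, test, filter and libraries. Of the 15 called host genes, 8 kept their call in every alternative, namely DANCR, SNHG1, SNHG3, SNHG4, SNHG7, SNHG11, SNHG15 and SNHG16. The other 7, SNHG6, SNHG8, SNHG14, SNHG17, SNHG20, SNHG22 and SNHG29, lost it in at least 1. Without shCon replicate 2, 7 host genes were lower and 1 was higher, and without shCon replicate 1, 2 were higher.

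**Figure D5:**
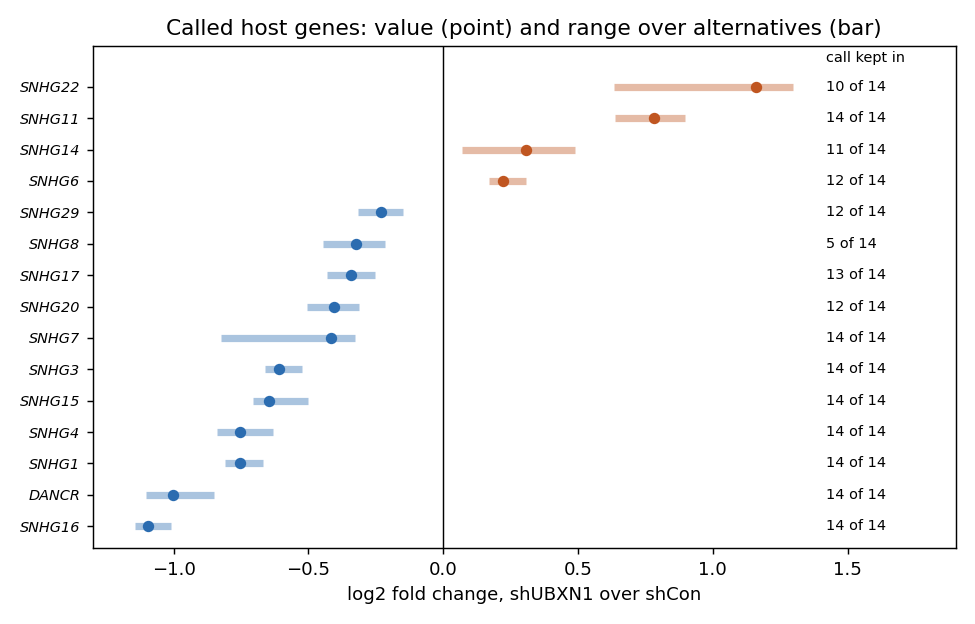
For the 15 called host genes, points give the log2 fold change in shUBXN1 over shCon and bars its lowest to highest value over 14 alternatives; the numbers at the right count the alternatives that kept the call. SNHG8 kept its call in 5 of 14, and no bar reaches 0.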

How the data were processed

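RNA from 2 shCon and 2 shUBXN1 samples of MHCC97H cells was sequenced in paired ends. Per the study's methods, reads were aligned to GRCh38 with Hisat2, TPM was calculated and limma was used; the submitters' processing notes list HISAT2 2.0.4, StringTie 1.3.0 and GRCh37. The authors deposited expected counts per gene, to 2 decimals and not normalized, with a gene length. The counting tool, annotation release and strand setting are not given in the sources used here. Of 61541 gene IDs, 61369 (99.7%) matched GENCODE release 44 (GRCh38), the source of gene positions and exon overlaps, and 61.2% of the deposited lengths equal its union exon length. Gene positions in RefSeq GRCh38.p14 gave the snoRNAs inside the span of each gene, whatever their strand and whether or not they lie in an intron. The deposited table holds no coordinates.

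Expected counts were rounded, filtered with filterByExpr, scaled by TMM and tested (two-sided) by the quasi-likelihood F test of edgeR 4.0.16 (glmQLFit, glmQLFTest; R 4.3.3), on all 4 samples with no covariate. The deposited values are counts, so this count test replaced limma. Genes were called at a Benjamini-Hochberg adjusted p under 0.05 over all 16863 genes tested, and separately at a fold change of 2 and p under 0.05. Dividing the log2 fold change by the root of F gave its standard error. CPM used TMM library sizes; TPM used the deposited lengths. Replicates differed beyond sampling noise (chi-square over its degrees of freedom 3.83 for shCon, 8.42 for shUBXN1), so all 4 were kept as separate samples. The procedure was tested on simulated data.

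The host genes and the related lists were chosen with earlier results of these data known. Every host gene is named, as are the 3 genes with the smallest p in each related list (among those called) and each tested gene that shares exon bases with a tested host gene or starts within 1000 bases of it on the other strand. Some genes that this rule names are not reported here. Alternatives were DESeq2 1.42.0, total count scaling, limma 3.58.1 (voom, log2(CPM + 1), log2(TPM + 1)), other count filters, a replicate block, a GC correction, leaving out each library, and only genes sharing no exon.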

Additional observations from a re-analysis of the deposited data

How the results depend on the processing

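The 15 calls kept their direction in every alternative, but small changes near the threshold did not all stay called. Without each library in turn, 1 to 4 host genes were higher and 7 to 12 lower at an adjusted p. By the 2-fold rule 0 to 1 were then higher and 1 to 2 lower. The median log2 fold change then ran from -0.27 to -0.20. Only over genes that share no exon, 1 was higher, 3 were lower, 0 passed a fold change of 2 in either direction, and the median was -0.37, with 6 genes tested. At a fold change of 2, 1 host gene was higher with DESeq2, with no filter, with at least 10 counts in every library and with a GC correction, and 0 with limma on log2(CPM + 1) or log2(TPM + 1). Likewise 1 was lower, SNHG16, with total count scaling, both limma log fits, the 10-count filter and the GC correction. DANCR, at 49.97% of control, left that call. The median log2 fold change was -0.12 with total count scaling, -0.18 on log2(CPM + 1), -0.12 on log2(TPM + 1), -0.18 with the 10-count filter and -0.28 with the GC correction. The median of all genes was 0.10 with total count scaling and -0.05 with the GC correction. The log2 ratio of the summed level was -0.17 with total count scaling and -0.18 in TPM. For the related lists, snoRNP proteins higher went from 1 to 0 with the GC correction, and without each library protein-coding hosts higher were 2 to 4 and ribosome biogenesis factors higher 2 to 4. The cause of these movements was not tested.

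Same-numbered libraries did not deviate together (r = 0.04 across genes), so the numbers were not taken as pairs. With the replicate block, 6 host genes were higher and 12 lower at an adjusted p, with GAS5, SNHG5 and ZFAS1 added. At a fold change of 2 with the block, 1 was higher and 2 were lower, and the median was -0.21. With the GC correction and the block, 5 were higher, 13 were lower, 1 rose and 1 fell by the 2-fold rule, and the median was -0.28. UBXN1 stayed at -2.03 with the block.

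Signs turned only in genes that were not called. SNHG12 was at -0.0185 with the GC correction and at -0.0167 with the block added. SNHG21 was at -0.15 without shCon replicate 1 and at -0.12 without shUBXN1 replicate 1, in a range of -0.15 to 0.28 over the libraries left out. SNHG30 was at 0.0745 with total count scaling, 0.0023 on log2(CPM + 1), 0.0559 on log2(TPM + 1), 0.0176 with the 10-count filter, 0.0177 with the GC correction, 0.0239 with the block added, 0.18 without shCon replicate 1 and 0.0095 without shUBXN1 replicate 1, in a range of -0.19 to 0.18 over the libraries left out.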
